A study of Mus musculus with 8 samples.

Results

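The genes described here run the step by which a resting cell leaves the G1 phase and starts to copy its DNA in S phase. They are the D cyclins Ccnd1, Ccnd2 and Ccnd3, the E cyclins Ccne1 and Ccne2, the kinases Cdk2 and Cdk4, the kinase inhibitors Cdkn1b and Cdkn2c, and the transcription factor E2f1. Members were found by their gene symbol, current or older, in the annotation of the array. Of the 10 genes, 8 had at least 1 probe in the value table, out of 10944 genes measured in all, and together they had 16 of the 16304 probes. Cdk4 and Cdkn1b had no probe under any of their symbols and are not analysed here.

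Transcripts were measured in primary hepatocytes of male C57Bl6/J mice, cultured cells freed from the liver with collagenase. Wells were labelled as controls or were given 500 µM metformin, a biguanide drug that lowers blood glucose, and both groups carry the time 24 h in their labels, with 4 wells and 4 arrays in each group. What the control wells received, the age of the mice and the animal behind each well are not given in the sources used here. A p-value below therefore speaks of the spread among these 8 wells, which may be technical. Each Illumina bead array reports, for each probe, the brightness of 1 transcript sequence as a log2 intensity, and a difference of 1 log2 unit is a 2-fold difference.

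Mitogens raise the D cyclins, which pair with Cdk4 or Cdk6 and phosphorylate the retinoblastoma protein. That releases E2F factors, which switch on E cyclins and the genes of DNA synthesis, and cyclin E with Cdk2 completes the phosphorylation. Inhibitors of the INK4 family such as Cdkn2c bind Cdk4 and Cdk6, and those of the CIP and KIP family such as Cdkn1b bind the cyclin complexes. Hepatocytes of the adult liver rest, and after partial hepatectomy or under growth factors in culture they induce cyclin D1 as they move through G1.

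With metformin, 5 of the 8 measured genes fell at their brightest probe, Ccne2 and Ccnd1 by more than 2-fold and Ccnd3, Cdkn2c and E2f1 by less. Ccne1 and Cdk2 had lower values there that did not pass, and Ccnd2 had a higher value that did not pass. Over the probes, 7 of 16 fell at an adjusted p under 0.05 (limma, Benjamini-Hochberg over all 16304 probes), where 2.93% of all probes fell. None of the 16 rose, where 2.72% of all probes did. At an unadjusted p under 0.05, 12 of the 16 were lower and 0 higher, against 11.2% and 11.7% of all probes. The metformin arrays lay wholly below the control arrays at 9 of the 16 probes and wholly above them at 0, against 7.46% and 7.10% of all probes. The median change at the brightest probe was -0.74 log2 units over the 8 genes and 0.010 over all 10944 genes. The members were chosen with earlier results of these data known, so these counts and shares describe them and are no test of the group. The number of probes that fell was 3 without control replicate 2, 3 or 4 and 2 without metformin replicate 2. At the brightest probe the number of genes that fell was 2 without control replicate 2 or 4, 1 without control replicate 3 or metformin replicate 2, and 3 without metformin replicate 3.

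**Figure D1:**
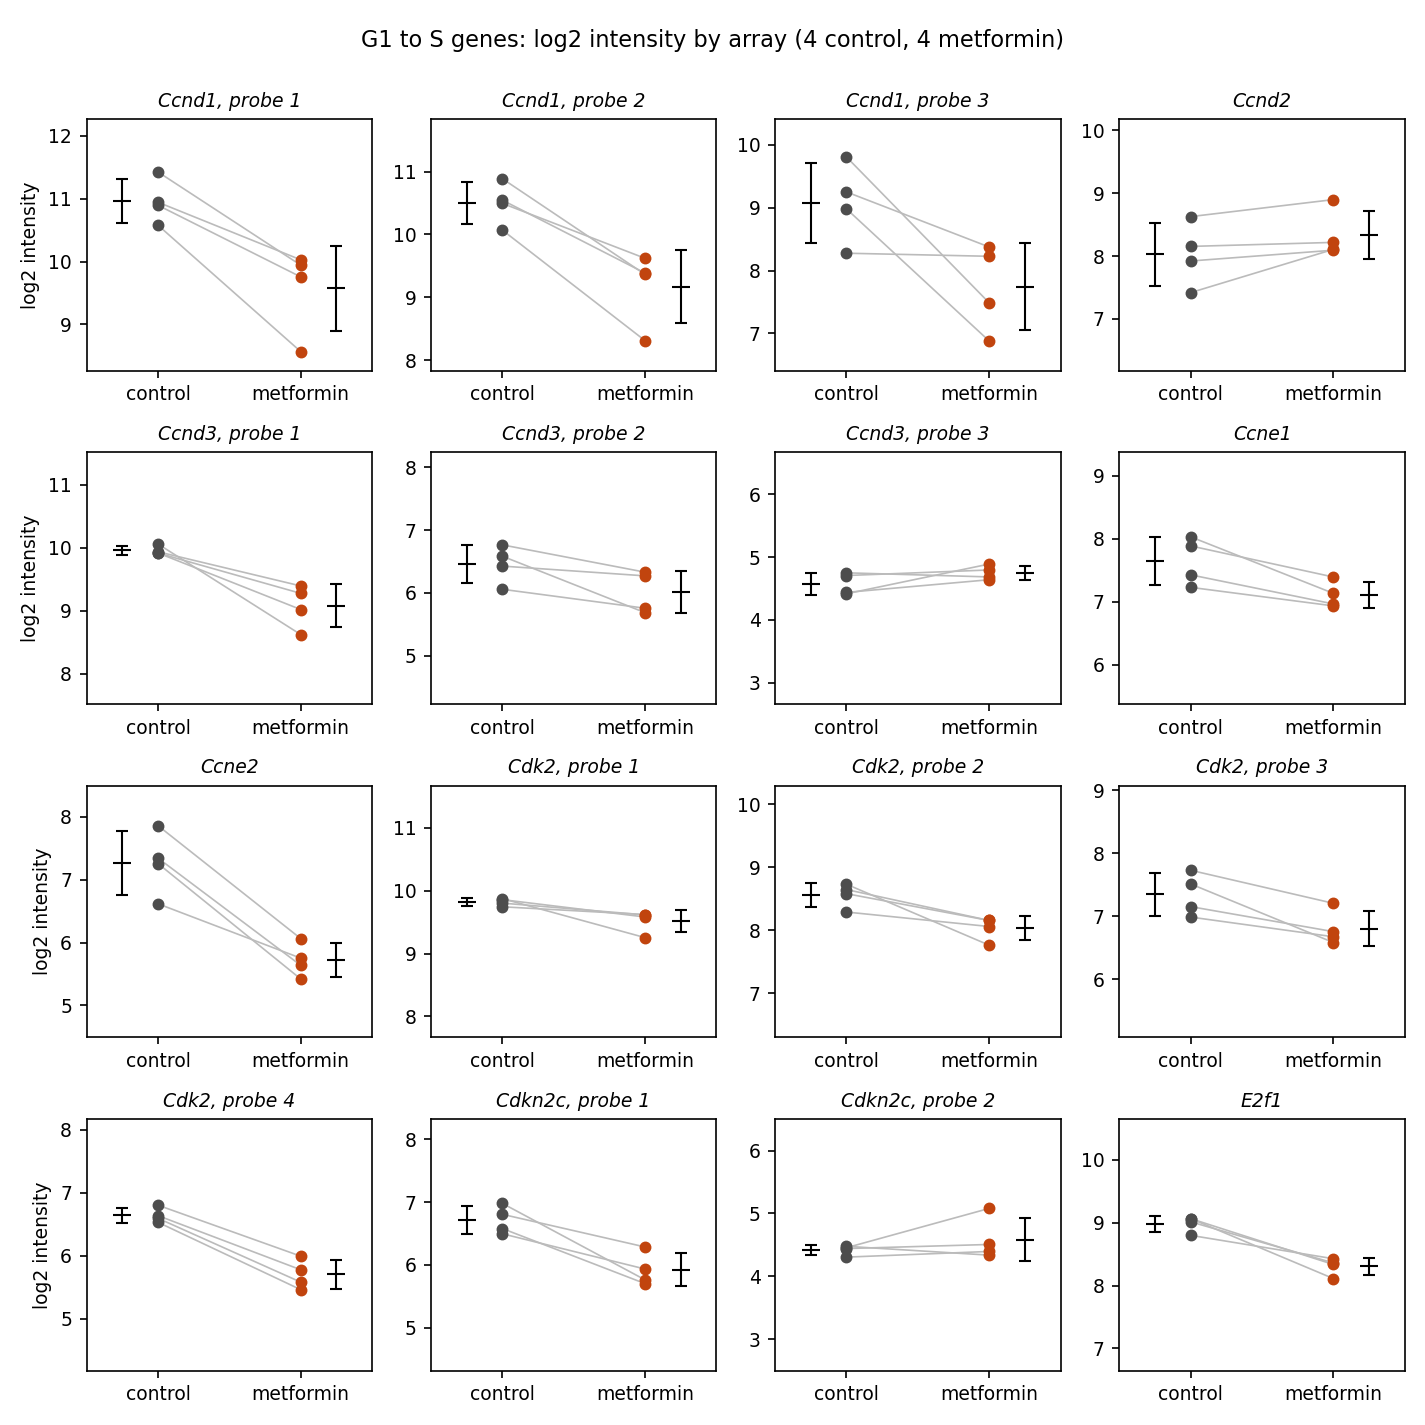
Log2 intensity of the 16 probes in each array, with control arrays in grey and metformin arrays in orange, the mean and SD of each group (n = 4) beside the points, and thin lines joining arrays of the same replicate number. The vertical axis of every panel covers the same span, probes of a gene are numbered from the brightest in the control arrays, and Ccne2 and the first 2 probes of Ccnd1 show the metformin arrays wholly below the control arrays.

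Ccnd1 encodes cyclin D1, the cyclin whose induction marks the entry of hepatocytes into the cycle. At its brightest probe, ILMN_1221503, the log2 intensities of control replicates 1 to 4 were 10.89, 11.42, 10.58 and 10.94, and those of the metformin replicates were 9.76, 9.94, 8.57 and 10.03. All 4 metformin arrays lay below all 4 control arrays, and metformin replicate 3 was the lowest of its group. The change was -1.39 ± 0.31 log2 units (SE, n = 4 per group; 2.61-fold lower; limma adjusted p = 0.0349). The next probe, ILMN_2601471, gave 10.55, 10.89, 10.07 and 10.49 in the control arrays and 9.39, 9.37, 8.31 and 9.62 with metformin. Its groups did not overlap either, and metformin replicate 3 was again lowest, with a change of -1.33 ± 0.28 (limma adjusted p = 0.0286).

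The third probe of Ccnd1, ILMN_2669793, did not pass. Its control values were 8.28, 9.81, 8.98 and 9.25 and its metformin values 8.23, 7.49, 6.88 and 8.38. Here the groups overlapped, because control replicate 1 lay among the higher metformin arrays. The change had almost the same size as at the other probes, -1.34 ± 0.38 (limma adjusted p = 0.0696), with a larger spread in both groups. Its adjusted p was 0.0379 without control replicate 1, and lay between 0.0278 and 0.173 over the alternatives. The call of the brightest probe was lost without control replicate 1 (adjusted p = 0.0511), 2 (0.0884), 3 (0.0643) or 4 (0.0817) and without metformin replicate 1 (0.0507) or 2 (0.0667), and its adjusted p ran from 0.0137 to 0.0884 over the alternatives. The second probe lost its call without control replicate 2 (0.0750) or 4 (0.0682) or metformin replicate 2 (0.0667), in a range of 0.0133 to 0.0750. Every one of these fits gave a lower value with metformin, and the change of the brightest probe stayed between -1.54 and -1.05.

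Ccnd3 encodes cyclin D3, a D cyclin with the same kinase partners. Its brightest probe, ILMN_3131063, gave 9.92, 9.92, 10.06 and 9.94 in the control arrays and 9.28, 9.02, 8.62 and 9.39 in the metformin arrays. The control arrays were nearly equal, all metformin arrays lay below them, and the lowest was again metformin replicate 3. Ccnd3 fell by 0.88 ± 0.17 log2 units at this probe (SE, n = 4 per group; 1.84-fold lower; limma adjusted p = 0.0215). The other probes of Ccnd3 did not pass, with changes of -0.45 ± 0.20 at ILMN_1246473 and 0.17 ± 0.13 at ILMN_2661849. The last of these lay between 4.42 and 4.89 on all arrays, under the lower quartile of all deposited values of 4.93, where a change can be understated. The call at the brightest probe was lost without control replicate 2 (adjusted p = 0.0516), 3 (0.0637) or 4 (0.0522) and without metformin replicate 2 (0.0642). With the mean of the 3 probes the change was -0.38 (adjusted p = 0.134), and the range over the alternatives was 0.0102 to 0.134.

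Ccnd2, which encodes cyclin D2, had 1 probe, and this was the only gene of the 8 with a higher mean at its brightest probe. Its log2 intensities were 7.42, 7.92, 8.15 and 8.63 in the control arrays and 8.11, 8.09, 8.22 and 8.90 with metformin. The groups overlapped, while each metformin array lay above the control array of the same replicate number. The change of 0.30 ± 0.27 (limma adjusted p = 0.545) had a 95% interval from -0.29 to 0.89, so that neither a small fall nor a rise of up to 0.89 log2 units can be told from no change.

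The changes of the D cyclins were also compared with each other within arrays, at the brightest probe of each gene, by exact two-sided permutation tests over the 70 splits of the 8 arrays, adjusted over 4 comparisons of family members. The change of Ccnd1 was below that of Ccnd2 by 1.69 log2 units, with a difference of -1.69 (95% interval -2.82 to -0.55; exact p = 0.0286, adjusted p = 0.0381). The change of Ccnd2 was above that of Ccnd3 by 1.18 log2 units (0.44 to 1.92; exact p = 0.0286, adjusted p = 0.0381). The exact p of 0.0286 is the smallest that 4 against 4 arrays allow. Between Ccnd1 and Ccnd3 the difference was -0.51 (-1.21 to 0.20; exact p = 0.143), and this interval holds both no difference and a fall of Ccnd1 larger by 1.21 log2 units. The splits ignore the replicate numbers. Within the 4 pairs of equal number, each of these 3 differences had the same sign in 4 of 4 pairs, and the exact p was 0.125, the smallest that 4 pairs allow, so that no call can be made that way. Over the pairs the difference between Ccnd1 and Ccnd3 ran from -0.58 to -0.37, that between Ccnd1 and Ccnd2 from -2.07 to -1.19, and that between Ccnd2 and Ccnd3 was 0.81 or more in each pair. In the same order, the 95% t intervals over the 4 pairs were -0.66 to -0.35, -2.28 to -1.09 and 0.70 to 1.66. For Ccnd1 and Ccnd3 the interval within pairs leaves out 0, unlike the one that ignores the pairs, but the pairing was taken from the data alone. These values compare the changes of the D cyclins and not their levels. Each test also rests on 1 probe per gene. The other probes of Ccnd3 gave -0.45 and 0.17, nearer to the 0.30 of Ccnd2, and those of Ccnd1 gave -1.33 and -1.34. The differences from Ccnd3 were therefore tested for its brightest probe only, and the intervals do not cover the spread between its probes.

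**Figure D2:**
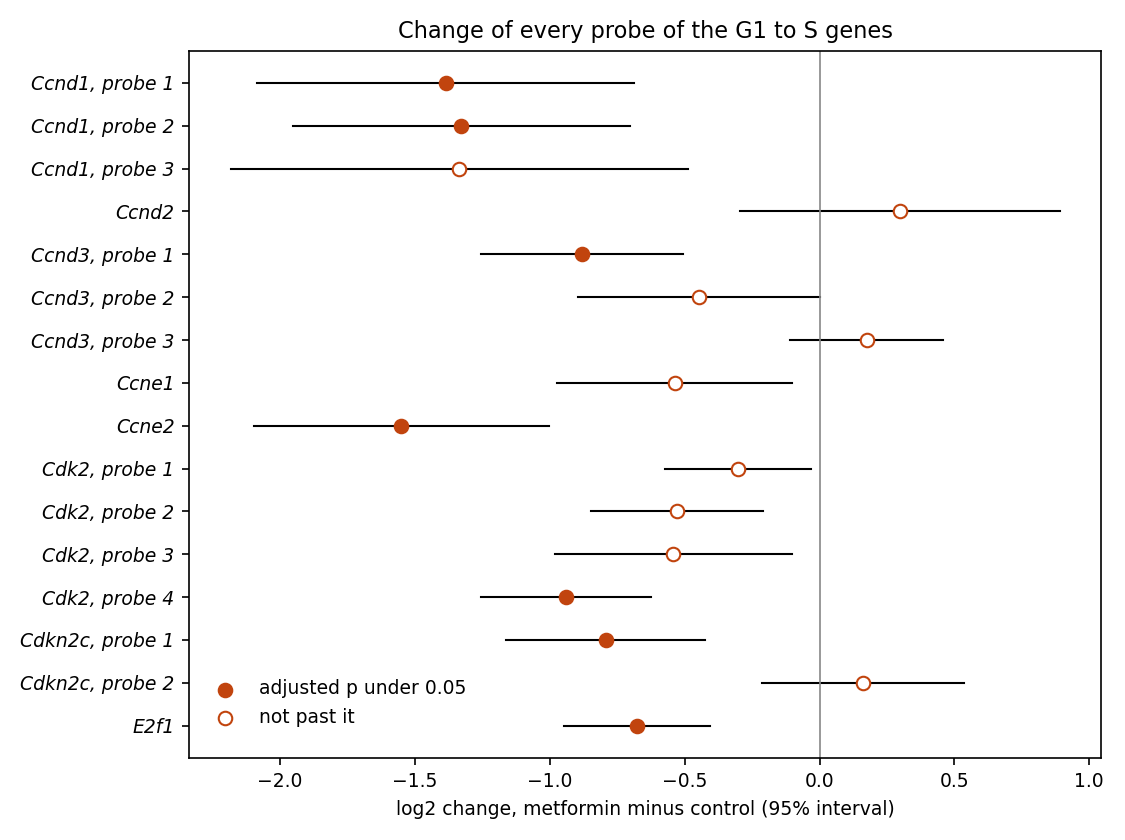
Log2 change of each of the 16 probes, metformin minus control, with the 95% interval of the limma fit on 8 arrays, and filled points where the adjusted p was under 0.05. Filled points lie between -1.55 for Ccne2 and -0.68 for E2f1, and the 3 points to the right of 0 are those of Ccnd2 and of the dimmest probes of Ccnd3 and Cdkn2c.

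The E cyclins bind and activate Cdk2 at the end of G1. Ccne2, which encodes cyclin E2, had the largest change of the 8 genes. Its probe, ILMN_1245789, gave 7.86, 7.26, 7.34 and 6.62 in the control arrays and 6.06, 5.42, 5.64 and 5.75 in the metformin arrays. The groups did not overlap, although control replicate 4 lay well below the other control arrays. Ccne2 fell by 1.55 ± 0.24 log2 units (SE, n = 4 per group), which is 2.93-fold (95% interval 2.0-fold to 4.28-fold; limma adjusted p = 0.0136). It passed in all 8 fits that left out 1 array, with adjusted p of up to 0.0458, and under every other alternative that was run.

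Ccne1, which encodes cyclin E1, was measured by 1 probe with 8.03, 7.43, 7.89 and 7.23 in the control arrays and 7.13, 6.96, 7.39 and 6.93 with metformin. Its groups overlapped, since metformin replicate 3 lay among the lower control arrays, but within each replicate number the metformin array was the lower. The change of -0.54 ± 0.20 did not pass (limma adjusted p = 0.134, or 0.0612 with the replicate number as a block). The change of Ccne2 was below that of Ccne1, with a difference of -1.01 log2 units (95% interval -1.50 to -0.53; exact two-sided permutation p = 0.0286, adjusted p = 0.0381 over the same 4 comparisons). Within the pairs it had that sign in 4 of 4, from -1.37 to -0.57, with the exact p of 0.125 that is the smallest 4 pairs allow. The 95% t interval over the pairs was -1.58 to -0.45.

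Cdk2, the kinase partner of the E cyclins, had 4 probes, all with lower means with metformin, and 1 of them passed. At the brightest, ILMN_1233064, the control arrays gave 9.87, 9.74, 9.80 and 9.86 and the metformin arrays 9.25, 9.62, 9.61 and 9.58. The groups did not overlap, but they were separated by only 0.12 log2 units and the change was small, -0.30 ± 0.12 (limma adjusted p = 0.175). The probe that passed was the dimmest, ILMN_1250942, with 6.80, 6.64, 6.53 and 6.59 in the control arrays and 5.99, 5.78, 5.46 and 5.58 with metformin. There the groups lay 0.54 log2 units apart and Cdk2 fell by 0.94 ± 0.14 (1.92-fold; limma adjusted p = 0.0120), and this probe passed in all 8 fits without 1 array. ILMN_2717613 gave -0.53 ± 0.14 (limma adjusted p = 0.0600) with groups that did not overlap, and ILMN_2770759 gave -0.54 ± 0.20 (limma adjusted p = 0.134) with groups that did. This last probe was designed on a different transcript accession from the other 3. With the mean of the 4 probes the change was -0.58 (adjusted p = 0.0190, in a range of 0.0190 to 0.286 over the alternatives of the brightest probe), so whether Cdk2 is called depends on how its probes are combined.

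E2f1 encodes the E2F factor that is both an activator of S phase genes and itself a target of E2F. Its probe, ILMN_1231138, gave 9.01, 9.06, 9.06 and 8.80 in the control arrays and 8.36, 8.33, 8.11 and 8.43 with metformin. Both groups were tight and did not overlap, with 0.37 log2 units between them. E2f1 fell by 0.68 ± 0.12 log2 units (SE, n = 4 per group; 1.60-fold lower; limma adjusted p = 0.0179). Its adjusted p was 0.0572 without control replicate 3, 0.0552 without metformin replicate 2 and 0.0635 without metformin replicate 3, in a range of 0.00841 to 0.0635 over the alternatives.

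Cdkn2c encodes p18-INK4c, an inhibitor of Cdk4 and Cdk6 that E2F is known to induce. Its brighter probe, ILMN_1228366, gave 6.50, 6.98, 6.58 and 6.80 in the control arrays and 5.93, 5.76, 5.70 and 6.29 with metformin. The groups did not overlap, and metformin replicate 4 came nearest to the control arrays. Cdkn2c, an inhibitor, fell at this probe as Ccnd1, Ccnd3 and Ccne2 did at theirs, by 0.79 ± 0.17 log2 units (SE, n = 4 per group; 1.73-fold lower; limma adjusted p = 0.0277). The other probe, ILMN_1215651, lay between 4.31 and 5.08 at the dim end of the scale and gave 0.16 ± 0.17. Metformin replicate 1 decided its sign, which turned to a change of -0.0066 without that array. The call of the brighter probe was lost without control replicate 2 (adjusted p = 0.0670), 3 (0.0616) or 4 (0.0682), without metformin replicate 2 (0.0814) or 3 (0.0904), and with the mean of both probes (-0.32, 0.177), in a range of 0.0138 to 0.177.

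The starts of the genes were searched for the letters that E2F factors are known to favour, as a description of the sequence. RefSeq promoter windows of the mouse build GRCm38.p6, from 250 bases before to 50 bases after a start, were held for 7 of the 10 genes in 9 windows, and none for Ccnd1, Ccnd2 and Ccne2. The words were TTTCCCGC, TTTGGCGC, TTTCGCGC and TTTGCCGC, and, added after these had matched only Cdk2, the same words ending in G, TTTCCCGG, TTTGGCGG, TTTCGCGG and TTTGCCGG, on both strands. Of 32817 windows of the same length, 4.5% hold at least 1 of the 8 words and 2.26% at least 1 of the first 4. Among the 9 windows 2 hold 1 match each, that of Cdk2 and that of the downstream start of Cdkn2c. The match of Cdkn2c is to an added word, and Cdk2 did not pass at its brightest probe. The windows of E2f1 and Ccnd3, which fell, and of Ccne1 hold no match. Whether E2F had a part in the changes was not tested. The E-box CACGTG, favoured by Myc and present in 7.15% of windows, lies in the window of Cdk4, with 4 matches, and in the downstream window of Cdkn2c, 34 bases after the start. A match describes these letters only and does not show that a factor binds there. The stretches that hold the E2F words are shown up to the last base before the start, with the word in capitals, for Cdk2 at chr10:128705052-128705211 and for Cdkn2c at chr4:109665373-109665592, both on the minus strand. Counted from the start, with -1 as the base before it, the word of Cdk2 begins at -140 and that of Cdkn2c at -200.
Cdk2: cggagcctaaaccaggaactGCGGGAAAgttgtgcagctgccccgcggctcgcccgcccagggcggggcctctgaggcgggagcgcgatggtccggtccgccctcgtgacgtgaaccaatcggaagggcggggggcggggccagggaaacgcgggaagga
Cdkn2c: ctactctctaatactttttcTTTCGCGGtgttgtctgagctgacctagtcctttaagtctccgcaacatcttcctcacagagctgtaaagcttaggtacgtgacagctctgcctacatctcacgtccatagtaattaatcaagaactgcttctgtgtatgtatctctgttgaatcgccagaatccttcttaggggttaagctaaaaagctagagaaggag

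Genes around this step were counted from 4 lists, each gene at its brightest probe, where 2.96% of all genes fell and 2.98% rose at the adjusted threshold, and 11.0% were lower and 12.5% higher at an unadjusted p under 0.05. The lists were chosen with earlier results of these data known, so their counts are no test. They also overlap, as the list of S phase genes shares Ccna2 with that of other regulators and Rbl1 with that of Rb, E2F and DREAM proteins. Among proteins of the Rb, E2F and DREAM group, which hold E2F genes off or on, 3 of 14 measured fell and 0 rose, with 3 lower and 1 higher at an unadjusted p under 0.05 (limma). Mybl2, a factor of the complex that follows DREAM when cells cycle, fell by 1.71 ± 0.20, and Tfdp1, the partner with which E2F1 binds DNA, fell by 1.05 ± 0.13. E2f2, an activating relative of E2f1, fell by 0.88 ± 0.16 and its other probe gave -0.80. The adjusted p of these genes were 0.00627, 0.00869 and 0.0179, and that of E2f2 was 0.0564 without metformin replicate 2 and 0.0664 without metformin replicate 3. The other probes of Mybl2, at the dim end of the scale, gave -0.50 and -0.36 and did not pass. E2f3, another E2F gene, was the 1 that was higher at an unadjusted p under 0.05. Its change was 0.61 ± 0.18 (limma adjusted p = 0.0825), with all metformin arrays above all control arrays, and it passed in 0 of the 8 fits without 1 array. The median of the list was -0.081 log2 units, against 0.010 over all genes. With metformin replicate 1 left out, 1 member of the list rose. It was Rb1, the gene of the retinoblastoma protein, with a change of 0.59 (limma adjusted p = 0.0482). With all arrays its change was 0.40 ± 0.20 (limma adjusted p = 0.251). With the lower 50% of probes left out, 1 member also rose, which is not named here.

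Of 14 other regulators of the step, 1 fell and 0 rose, with 4 lower and 1 higher at an unadjusted p under 0.05 (limma) and a list median of -0.20. Skp2, the ubiquitin ligase subunit that marks Cdkn1b for degradation, fell by 0.66 ± 0.16 (limma adjusted p = 0.0460), and its other probes gave -0.58 and -0.62. It passed in 1 of the 8 fits without 1 array, that without control replicate 2, and its adjusted p was 0.0722, 0.109 and 0.107 without control replicate 1, 3 and 4 and 0.0770, 0.123, 0.0963 and 0.0529 without metformin replicate 1, 2, 3 and 4. Of 19 measured S phase genes that E2F is known to drive, 12 fell and 0 rose, with 16 lower and 0 higher at an unadjusted p under 0.05 (limma; 11.0% and 12.5% of all genes) and a median of -0.78, and 7 fell without metformin replicate 2. Those with the smallest p were Mcm3, a subunit of the replicative helicase (-1.47), Rrm2, the small subunit of ribonucleotide reductase (-2.55, and -1.54 at its other probe), Cdc6, which loads the helicase (-1.39), and Uhrf1, which keeps DNA methylation through replication (-1.24, and -0.35 at a dim probe). Their adjusted p lay between 0.00590 and 0.00872.

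Of 16 genes of the signals that act upstream of the D cyclins, 1 fell and 0 rose, with 3 lower and 1 higher at an unadjusted p under 0.05 (limma; 11.0% and 12.5% of all genes), and the median was 0.0097. The 1 that fell was Myc, a transcription factor induced by mitogens, at -0.81 ± 0.13 (limma adjusted p = 0.0143), and it passed in all 8 fits without 1 array. With the replicate block 2 fell, where 3.34% of all probes fell and 3.45% rose.

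**Figure D3:**
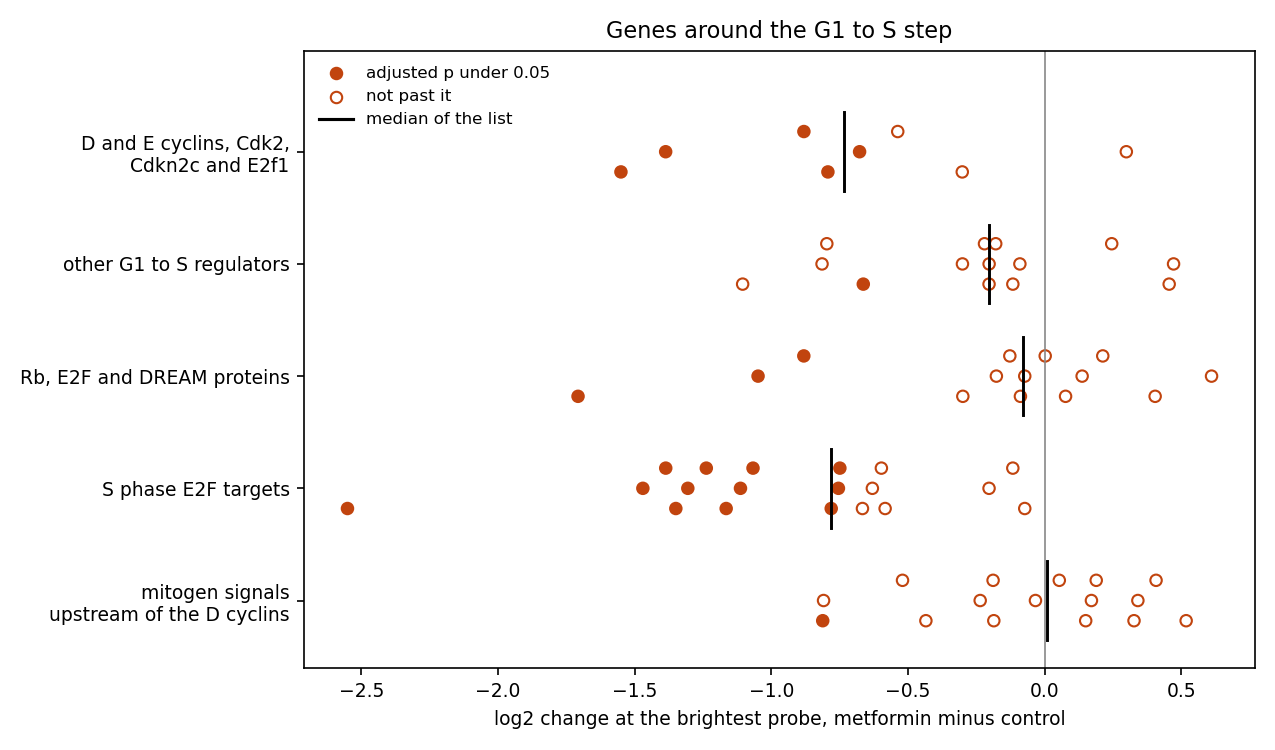
Log2 change, metformin minus control, of each gene at its brightest probe for the 8 measured G1 to S genes and 4 lists around them, with filled points where the adjusted p was under 0.05 and a bar at the median of each list. The medians of the G1 to S genes and of the S phase genes are -0.74 and -0.78, and those of the other 3 lists lie between -0.20 and 0.0097.

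The genes most alike in pattern were sought by Pearson's r over the 8 arrays among the other 10943 genes, for the 2 members with the smallest p at the brightest probe. For Ccne2 they were Srsf6, a splicing factor (r = 0.982), Kin, a nuclear DNA binding protein (0.982), Uri1, a prefoldin-like protein (0.970), Psg23 (0.968) and Dpp9, a dipeptidyl peptidase (0.967). For E2f1 they were Pop5, a subunit of ribonuclease P (0.996), Nup43 of the nuclear pore (0.988), Cdca7 (0.984), Polr2d, a subunit of RNA polymerase II (0.983), and Uhrf1 (0.982). These values describe 8 arrays that share the difference between the groups. Of these 10 genes, Kin and Uri1 did not pass the threshold themselves.

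The cell type in the labels was checked against its markers. Of 9 measured hepatocyte markers, Ttr, Apoa1, Apoa2, Serpina1a, Hnf4a and Cyp2e1 had mean levels above 10 log2 units in both groups, while the probes of Alb (5.65 in the control and 6.05 in the metformin arrays) and Fgb (4.84 and 4.54) were dim and Cps1 was at 6.45 and 6.26. None of the 9 passed in limma, also without adjustment. Markers of other liver cells were also present. All 10 sinusoidal endothelial markers had higher means with metformin, 0 passed, 2 had an unadjusted p under 0.05 and 3 passed with the replicate block, and their summed intensity was 9.77 to 11.05 in the control and 9.90 to 11.82 log2 units in the metformin arrays. The 3 bile duct markers were higher as well, with summed intensities of 8.52 to 9.44 and 9.01 to 10.05. Of them 0 passed, 2 had an unadjusted p under 0.05 (limma) and 1 passed with the block. At that unadjusted threshold 12.5% of all genes were higher. Of 8 Kupffer cell markers 7 were lower, 0 passed and 1 did with the block, with summed intensities of 11.41 to 12.16 and 11.22 to 11.98. The 8 stellate cell markers (11.22 to 12.09 and 11.27 to 12.23) and the 2 lymphocyte markers (5.36 to 6.51 and 5.29 to 5.53) had 0 past the threshold. The part of these cells in the changes of the cyclins was not tested, and in such cultures fewer cells of a type and less RNA per cell cannot be told apart.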

How the data were processed

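The authors deposited log2 intensities, 1 column per array for 8 arrays and 16304 probes, with 0 columns left unmapped. The submitters' processing notes name limma 3.26.9 and R 3.2.3. The background correction, normalization and probe filter are not given in the sources used here. Array medians were all 6.48, so no further normalization was applied, and the background level of dim probes is unknown. Precision is limited by the number of arrays. The platform's annotation gave 15301 of them 1 symbol, and 1003 are unnamed here. For 15294 probes the symbol was taken from RefSeq's GRCm38.p6 table through the Entrez number, whether or not it differed.

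Metformin was compared with control, probe by probe over the 8 arrays, by lmFit and eBayes of limma 3.58.1 (R 4.3.3), with Benjamini-Hochberg adjustment over all probes and a threshold of 0.05. Errors after ± are standard errors of the change. The model was run on simulated data whose errors were independent between arrays and between probes. Those data held no shared effect of the replicate number, so the run does not show how the model performs where there is one. The members and lists were chosen with earlier results of these data known. All probes of the members are named, and from each list up to 4 genes with the smallest p among those past the threshold. Deviations of same-numbered control and metformin arrays from their group means correlated at 0.27, 0.25, 0.13 and 0.20 over all probes. Since each exceeded 0.1, equal numbers were taken as possible pairs, from the data alone. The main comparison and the permutation splits ignored them, and the replicate block and the tests within pairs were run as alternatives.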

Additional observations from a re-analysis of the deposited data

Results flagged for a closer look

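In 3 of the 32 groups of 4 arrays (16 probes, 2 groups each), 1 array stood far from the other 3, its gap to the nearest array taking up most of the group's range (Dixon's test at the 95% level). Chance alone flags about 1 in 20 groups. For Ccnd2, metformin replicate 4 was at 8.90 log2 units and the others between 8.09 and 8.22. For the brightest probe of Ccnd3, control replicate 3 was at 10.06 and the others between 9.92 and 9.94. For the brightest probe of Cdk2, metformin replicate 1 was at 9.25 and the others between 9.58 and 9.62.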

How the results depend on the processing

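The number of member probes that fell was 7, as in the main comparison, with the replicate block and both filters on dim probes. With the lower 50% left out, however, it held other probes, since the probes of Cdk2 and Cdkn2c that had passed were not tested and Ccnd1 ILMN_2669793 (adjusted p = 0.0389) and Cdk2 ILMN_2717613 (0.0320) passed instead. It was 8 with an offset of 16, 9 with an intensity trend and 10 with array weights. With quantile normalization it was again 7, but that setting could change little. Array medians were already equal, and some values recur exactly across arrays, as 13.5407 for Ttr in control replicates 1 and 4. Leaving out 1 array gave 2 to 7 probes and 1 to 5 genes at the brightest probe. In the same fits the calls over all probes ran from 69 to 521 higher and from 107 to 565 lower, against 443 and 477 with all arrays, and array weights gave 802 and 862. The replicate block gave 562 higher and 544 lower, and changed no call among the member probes. Upstream signal genes that fell numbered 2 with the replicate block, with the mean of probes, with the lowest 25% left out and with array weights, and 3 with the lower 50% left out or an intensity trend, against 1, and 1 to 2 without 1 array. Other regulators that fell numbered 3 with array weights, 2 with the lower 50% left out and 0 with an intensity trend, against 1, and 0 to 2 without 1 array. In the Rb, E2F and DREAM list 1 gene rose with the lower 50% left out, and 0 to 1 without 1 array. The S phase genes that fell numbered 7 to 12 without 1 array. The differences between family members, tested within pairs and without 1 array by an alternative chosen after seeing the data, kept their sign in all of these, with an exact p of 0.125 within pairs. The only reversed value was that of the dimmer Cdkn2c probe, -0.0066 without metformin replicate 1, in a range of -0.0066 to 0.24 without 1 array. Each fit without 1 array held fewer samples, and the cause of the other differences was not tested. Probes near the lower end of the scale can understate a change.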
